A study of Mus musculus with 6 samples.

Results

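Serine/arginine-rich (SR) splicing factors were followed through a block of translation in mouse embryonic stem cells. The 10 genes described are Srsf1, Srsf2, Srsf3, Srsf4, Srsf5, Srsf6, Srsf7, Srsf10, Srsf11 and Tra2b, chosen by name as SR factors reported to carry poison exons. All 10 are among the 17485 gene names in the count files, and 9 of them are among the 12755 genes with enough counts to be tested. Srsf4 was the member that did not pass that filter.

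The cells were E14, a mouse embryonic stem cell line of 129/Ola background, kept on gelatin in medium with serum and leukaemia inhibitory factor. The 3 groups had 2 libraries each of polyadenylated RNA. Cells of the first received ethanol alone for 9 h and served as control. The other cells received 250 µg/mL cycloheximide, in 0.007% ethanol, for 3 h or for 6 h, starting 24 h after seeding. The drug and the hours of exposure therefore differ together between treated and control cells, and their effects cannot be told apart. The labels do not say whether the libraries of a group came from separate cultures, so p-values measure the spread between these libraries, which may be technical.

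SR proteins bind exonic enhancer sequences through RNA recognition motifs and recruit the splicing machinery through arginine- and serine-rich tails. Many SR genes hold an ultraconserved alternative exon, the poison exon, whose inclusion brings in a premature stop codon. Such a transcript is degraded by nonsense-mediated decay (NMD), a surveillance route that needs translating ribosomes, and several SR proteins promote inclusion of the poison exon in their own RNA. Cycloheximide stalls ribosomes during elongation, and it is commonly used to let NMD substrates accumulate. The deposited values are counts per gene, in which transcripts with and without the poison exon are added together, so exon inclusion itself was not measured.

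The GENCODE M21 annotation of the mouse genome (GRCm38, the assembly that the mm10 label names) gives an NMD transcript for 9 of the 10 genes. In 6 of these, Srsf3, Srsf4, Srsf6, Srsf7, Srsf11 and Tra2b, the premature stop lies in a cassette exon that is absent from the principal transcripts. In Srsf1 and Srsf5 it lies in an exon that overlaps a principal exon. In Srsf2 the NMD transcript keeps the normal stop and is spliced downstream of it. Srsf10 has no NMD transcript in this release. The exons that carry the stop are shown here because they are the feature that names the group. Each line begins at the first base of the poison exon and ends with the premature stop in capitals. All are read 5′ to 3′ on the strand of the gene. Tra2a, the paralogue of Tra2b, is added for comparison and was picked out after its values were seen. Srsf9, another SR gene outside the 10, also has a cassette exon with a premature stop in the annotation, which is not printed.
Srsf3: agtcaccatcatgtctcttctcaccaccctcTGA
Srsf6: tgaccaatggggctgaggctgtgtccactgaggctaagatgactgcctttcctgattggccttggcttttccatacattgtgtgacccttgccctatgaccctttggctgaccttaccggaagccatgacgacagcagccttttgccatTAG
Srsf7: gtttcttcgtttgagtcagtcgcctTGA
Srsf11: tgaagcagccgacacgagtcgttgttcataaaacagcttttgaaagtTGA
Tra2b: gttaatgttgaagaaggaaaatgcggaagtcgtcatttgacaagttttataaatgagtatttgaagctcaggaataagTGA
Tra2a: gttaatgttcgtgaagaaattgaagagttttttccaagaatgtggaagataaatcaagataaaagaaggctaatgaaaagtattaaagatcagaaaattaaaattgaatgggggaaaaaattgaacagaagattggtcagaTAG

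The Srsf3 exon is at chr17:29039454-29039909 on the plus strand, is 456 bases long and reaches the end of its stop after 34 bases. The Srsf7 exon, at chr17:80204622-80205081 on the minus strand, has a similar layout, with the stop complete after 28 of 460 bases. The Srsf6 exon at chr2:162932815-162933082 on the plus strand has 268 bases and its stop ends at base 152. The remaining exons are shorter or carry the stop at another place. Those of Srsf11 (chr3:158023243-158023359, minus strand) and Tra2b (chr16:22258986-22259261, minus strand) have 117 and 276 bases, with stops complete after 50 and 81 bases. The Srsf4 exon at chr4:131884276-131884482 on the plus strand has 207 bases and a stop complete after 115. The Tra2a exon at chr6:49252803-49253108 on the minus strand has 306 bases and a stop complete after 144. Its printed stretch begins with the same 9 bases as that of Tra2b, gttaatgtt, and both are exon 2 of their transcripts. The lowest support level given among these transcripts, 5 on a scale where 1 is best, is that of Srsf4 and Srsf6. Srsf3, Tra2b and Tra2a have level 1 and Srsf11 has level 3, while no level is given for the Srsf7 transcript.

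Poison exons of the SR genes were long for their class. Their median length was 272 bases, against 120 bases over all 1507 cassette exons with a premature stop in the annotation. At least 200 bases were spanned by 5 of the 6, against 15.5% of all such exons, and the exon of Srsf11 was the one below that length. The sets were chosen by unlike rules. Each member gave a single exon, from the transcript with the best support level where levels were given. The 1507 hold every distinct exon of all genes at any support level, the members included. From the stop to the last exon junction the 6 transcripts ran 67 to 1015 bases. The sequence was read from the reference annotation, and no read of these cells was assigned to it.

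**Figure D1:**
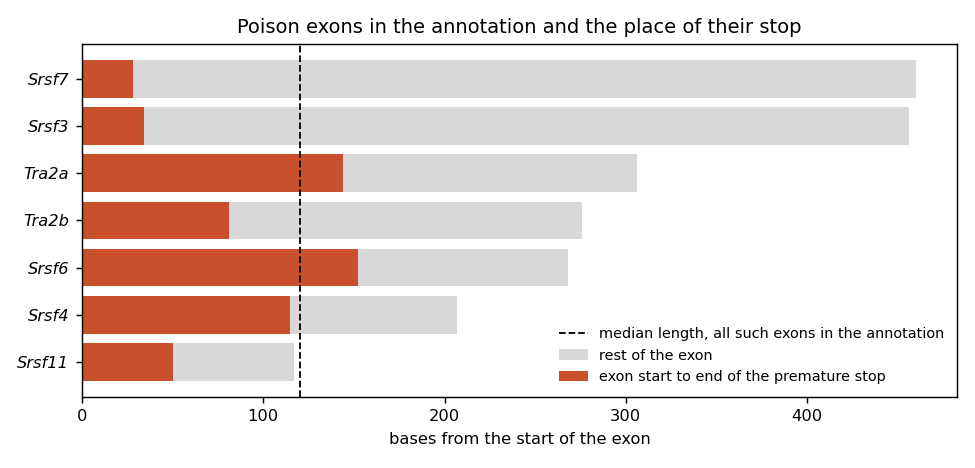
Annotated poison exons with the horizontal axis in bases from the start of the exon: coloured bars run to the end of the premature stop, grey bars to the end of the exon, and the dashed line is the median length of all 1507 such exons (120 bases). Srsf3 and Srsf7 have the longest exons of the members (456 and 460 bases) with stops complete after 34 and 28 bases.

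Library totals ranged from 9385447 to 27351079 counts, with the 6 h libraries the deepest, and 3 counts, the floor used for detection, equalled 0.099 to 0.367 CPM (the counts of a gene relative to its library's total, corrected with the trimmed mean of M values, TMM). Mitochondrially encoded genes took 24.8% ± 0.135 of the counts in control (SD, n = 2), 19.3% ± 0.520 at 3 h and 17.0% ± 0.595 at 6 h. Summed CPM of the 9 pluripotency markers checked was 6784 to 6951 in control, 7885 to 8151 at 3 h and 5480 to 5660 at 6 h. These markers did not move alike: at 3 h Sox2 was at 3849 and 3958 CPM against 2282 and 2602 CPM in control, while Utf1 was at 801 and 744 CPM against 1063 and 1060 CPM. The 4 fibroblast markers in the files summed to 9.29 CPM or less in each library, the 5 primitive endoderm markers to at most 18.8 CPM, the 4 mesoderm markers to at most 12.2 CPM and the 3 neuroectoderm markers to at most 116 CPM. No marker was at 0 in all libraries. The endoderm sum was lowest in control (5.41 to 7.58 CPM) and the neuroectoderm sum highest at 3 h (90.8 to 116 CPM). The genes within these sums did not all move alike. Sox1 made up most of the neuroectoderm sum (88.0 and 113 CPM at 3 h), while Pax6 was highest at 6 h. Among endoderm markers, Dab2 had its lowest value at 3 h, and Gata6 overlapped between control and 6 h. The part of these shifts in the results that follow was not tested. In bulk RNA, fewer cells of a type and less RNA per cell cannot be told apart.

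Together the 10 genes took 0.517% and 0.506% of all counts in the control libraries, 0.566% and 0.609% at 3 h, and 0.635% and 0.701% at 6 h. This share was lowest in both control libraries and highest in both 6 h libraries, while the mitochondrial share ran the other way. The part of the mitochondrial share in this order was not tested. Shares rest on library totals, and on that scale genes in general moved upward as well. Across the 12755 genes the middle log2 value against control was then 0.25 at 3 h and 0.40 at 6 h. For the 9 members tested it was 0.20 and 0.31, so the rising share does not set them apart. Srsf2 supplied 42.0% to 47.7% of the members' counts in each library. Counts were not divided by transcript length, so they do not order the genes by number of transcripts.

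After TMM scaling, no member was called at 3 h and 1 of 9 at 6 h. A gene was called when its edgeR quasi-likelihood p, adjusted by the Benjamini-Hochberg method over all 12755 genes, was under 0.05. At 3 h, 3.6% of all tested genes were called higher and 1.3% lower. At 6 h these shares were 14.8% and 14.3%, and the 1 called member, Srsf1, was lower. Between 6 h and 3 h, 0.455% of genes were called higher and 1.18% lower, and no member was called. The member counts are near these background shares. At an unadjusted p under 0.05 there was 1 member at 3 h (Srsf1), 3 at 6 h (Srsf1, Srsf6 and Srsf11) and 0 between the treatment times, against 24.7%, 41.4% and 18.1% of all tested genes. The DESeq2 test called 1 member at 3 h (Srsf1, lower) and 3 at 6 h (Srsf11 higher, Srsf1 and Srsf6 lower), against 11.3% and 30.8% of all genes. By limma-voom 0 were called at 3 h and 2 at 6 h (Srsf11 higher, Srsf1 lower), against 3.49% and 28.4% of all genes. Neither test called a member between the treatment times, where they called 5.23% (DESeq2) and 3.98% (limma-voom) of all genes.

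The median log2 fold change of the 9 genes was -0.02 at 3 h and -0.05 at 6 h, against 0.02 and 0.04 over all genes tested. Their fitted values ran from -0.32 to 0.37 at 3 h and from -0.32 to 0.51 at 6 h. The median standard error (SE) of a member at 6 h was 0.11 on the log2 scale, below the 0.23 of all tested genes. Both comparisons use the same control libraries, so their values are given side by side and are not independent of each other.

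**Figure D2:**
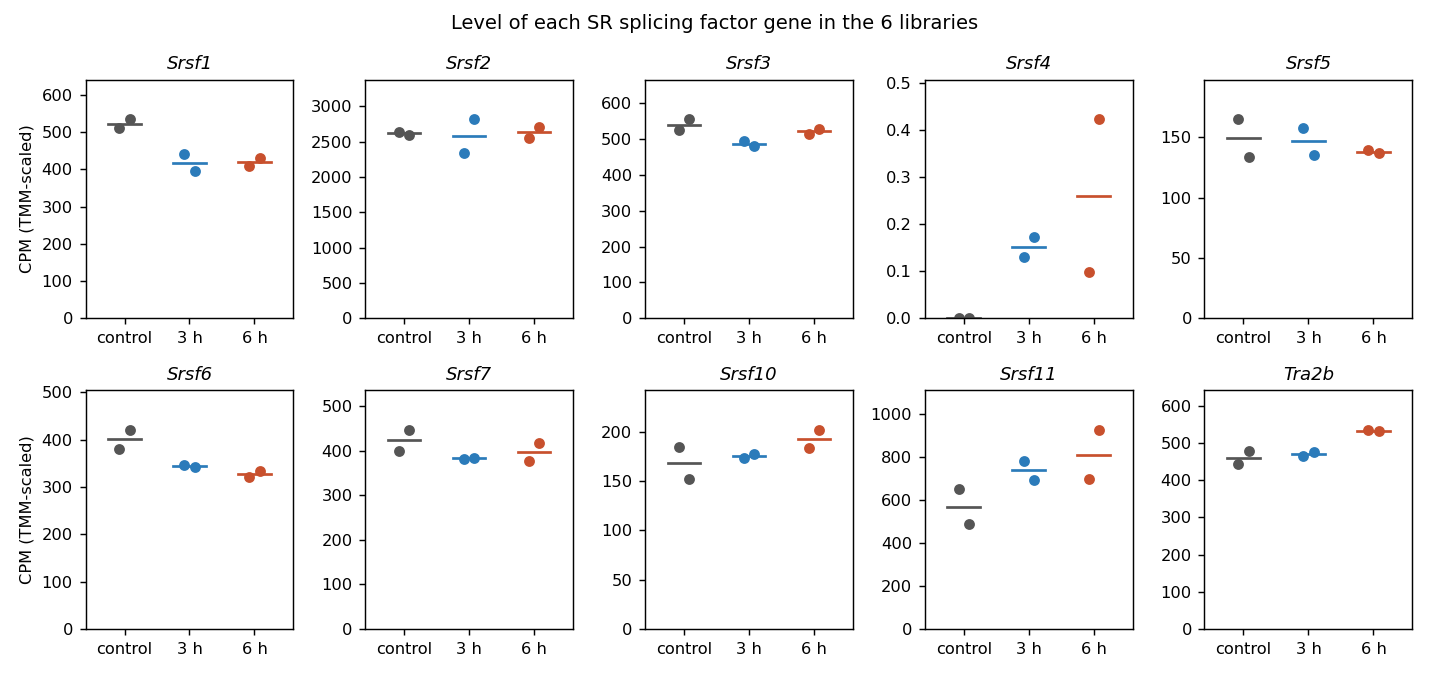
Level of each SR gene in CPM (TMM-scaled, vertical axes starting at 0 and differing between panels) in the 6 libraries, by group; points are libraries and short lines are group means. Srsf1 and Srsf6 are lower in all treated libraries than in both control libraries, Srsf11 is higher in all of them, and Srsf4 is at or near 0 throughout.

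Srsf1 encodes the founding member of the family, an activator of exon inclusion that also acts in mRNA export and translation. Its level was 511 and 534 CPM in control, 441 and 395 CPM at 3 h, and 408 and 431 CPM at 6 h. All 4 treated libraries were below both control libraries, and those of 3 h and 6 h overlapped each other. The log2 fold change was -0.32 ± 0.10 (SE) at both times, with an edgeR adjusted p of 0.104 at 3 h and 0.0492 at 6 h. Srsf1 thus fell at 6 h to 0.803 of the control level, with a 95% interval from 0.682 to 0.945. In 12 of 18 alternative settings the direction held and the call was lost, among them the omission of any 1 library, where adjusted p ranged from 0.0656 without the first control library to 0.214 without the first 6 h library. In 1 more, with library totals as the only scaling, the call was lost and the value turned to 0.04 (adjusted p = 0.784). A gene annotated antisense to Srsf1, Gm11508, shares its locus, and the strand setting of the counting is not given in the sources used here.

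Srsf11, an SR-related protein of the spliceosome, had the highest fitted fold change of the members. The control libraries stood at 651 and 486 CPM, those of 3 h at 781 and 691 CPM and those of 6 h at 694 and 924 CPM. Every treated library was above both controls, although the libraries within each group were far apart. The log2 fold change was 0.37 ± 0.17 at 3 h (adjusted p = 0.225) and 0.51 ± 0.17 at 6 h (adjusted p = 0.0572), so neither was called by edgeR. The 6 h interval ran from 1.08-fold to 1.87-fold. It passed the threshold in 8 of 18 alternatives, including limma-voom (0.49, adjusted p = 0.0494) and the DESeq2 test (0.49, adjusted p = 0.0323). The size turned on single libraries. Without the first 6 h library the value was 0.70 (adjusted p = 0.0419), without the second 0.29 (adjusted p = 0.341), without the first control library 0.73 (adjusted p = 0.0156), and without the second control library 0.32 (adjusted p = 0.213). The annotation gives Srsf11 11 transcripts with a retained intron and 3 NMD transcripts among 19, none of which can be told apart in a count per gene.

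Tra2b, an SR-like regulator that binds GA-rich enhancers and controls its own poison exon, was at 445 and 478 CPM in control. At 3 h it stood at 467 and 477 CPM and at 6 h at 535 and 533 CPM. The 3 h libraries lay within the control range, and the 6 h libraries were above all others. The log2 fold change was 0.03 ± 0.10 at 3 h (adjusted p = 0.862) and 0.21 ± 0.10 at 6 h (adjusted p = 0.130), neither of them called. The 6 h interval, from 0.996-fold to 1.35-fold, includes no change.

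Srsf6, which regulates alternative exons and is itself subject to poison exon control, was at 381 and 420 CPM in control. Its 3 h libraries had 346 and 343 CPM and its 6 h libraries 322 and 334 CPM. The groups did not overlap, and the order was control, 3 h, 6 h from high to low. The log2 fold change was -0.22 ± 0.10 at 3 h (adjusted p = 0.227) and -0.29 ± 0.10 at 6 h (adjusted p = 0.0624), neither called by edgeR. It was called lower at 6 h by the DESeq2 test (adjusted p = 0.0303) and without the first control library (-0.36, adjusted p = 0.0486).

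Srsf2, also known as SC35 and a mark of nuclear speckles, supplied the most counts of the members. It had 2643.5 and 2595.6 CPM in control, 2347 and 2815 CPM at 3 h, and 2556 and 2711 CPM at 6 h. The control libraries lay inside the range of the treated ones. The log2 fold change at 6 h was 0.01 ± 0.11 (adjusted p = 0.965), with an interval from 0.851-fold to 1.19-fold. Srsf2 overlaps Mettl23 and Mfsd11 on the opposite strand. Mfsd11 was called higher at 6 h (0.90 ± 0.22, adjusted p = 0.0174), and without the strand setting reads of these genes cannot be told apart where they overlap.

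Srsf3, the smallest SR protein, and Srsf7, its close relative with a zinc knuckle, both act in splicing and in export and 3′ end choice of mRNA. Srsf3 had 526 and 555 CPM in control, 494 and 481 CPM at 3 h, and 515 and 528 CPM at 6 h. Srsf7 had 400 and 446 CPM in control, 382 and 385 CPM at 3 h, and 377 and 418 CPM at 6 h. For both genes the 3 h libraries were below the control libraries and those of 6 h overlapped them. Neither gene was called: the log2 fold changes of Srsf3 were -0.15 ± 0.09 at 3 h and -0.05 ± 0.09 at 6 h (adjusted p of 0.363 and 0.715). The values of Srsf7 were -0.14 ± 0.11 and -0.09 ± 0.11 (adjusted p of 0.449 and 0.568). At 6 h their intervals ran from 0.832-fold to 1.12-fold and from 0.794-fold to 1.11-fold.

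Srsf5, whose product takes part in alternative splicing, and Srsf10, a splicing regulator that becomes a repressor when dephosphorylated, had the lowest counts of the 9 tested members. Srsf5 stood at 165 and 133 CPM in control, 158 and 135 CPM at 3 h, and 140 and 137 CPM at 6 h. Srsf10 stood at 185 and 152 CPM in control, 173 and 178 CPM at 3 h, and 183 and 202 CPM at 6 h. The control libraries of each gene differed by more than its group means did, and the control libraries overlapped the treated ones. At 6 h the log2 fold change was -0.11 ± 0.14 for Srsf5 (adjusted p = 0.583) and 0.19 ± 0.13 for Srsf10 (adjusted p = 0.293). The intervals, from 0.744-fold to 1.15-fold and from 0.934-fold to 1.39-fold, were the widest among the members other than that of Srsf11.

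Srsf4, a larger SR protein with a long serine-rich tail, was barely counted. Neither control library held a count, those of 3 h held 2 and 3 counts, and those of 6 h held 3 and 11. The second 6 h library was the only one above the floor of 3 counts, so no fold change is given. In the control libraries that floor allows a level of up to 0.222 and 0.367 CPM, for counting error only. A930004J17Rik lies within Srsf4 on the same strand and Gm12992 on the opposite one, and how the authors assigned reads shared by such genes is not given in the sources used here.

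**Figure D3:**
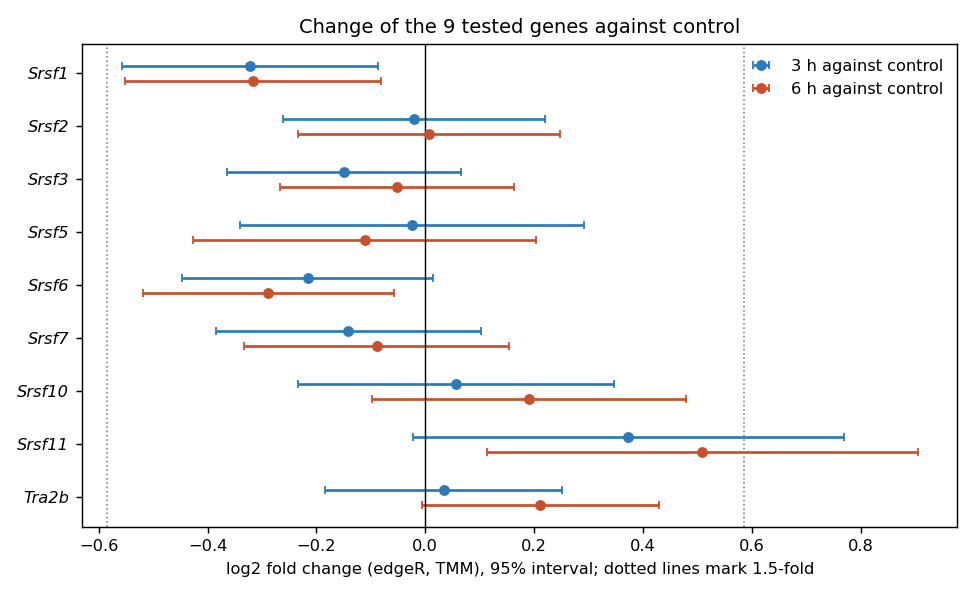
Log2 fold change against control at 3 h and 6 h for the 9 tested SR genes (points, edgeR with TMM scaling) with 95% intervals (bars); dotted lines mark a 1.5-fold change. Most intervals cross 0; at 6 h Srsf1 lies at -0.32, Srsf6 at -0.29 and Srsf11 at 0.51, with intervals that exclude 0 before adjustment for 12755 genes.

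Between 6 h and 3 h the 9 tested members differed by -0.09 to 0.18 on the log2 scale, with a median of 0.05 against 0.01 over all genes. Tra2b had the highest value, 0.18 ± 0.10 (adjusted p = 0.367, interval from 0.973-fold to 1.32-fold), and its libraries did not overlap between the times. Srsf1 was at 0.00 ± 0.10 (adjusted p = 0.986). Groups did not overlap for 3 genes that were higher at 6 h (Srsf3, Srsf10 and Tra2b) and 1 that was lower (Srsf6), and those of the other 5 overlapped. Among all tested genes, 27.2% did not overlap and were higher and 26.9% did not overlap and were lower, so these counts are near the background.

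The direction of several members depended on how libraries were scaled. Without TMM, library totals alone shifted the median of all genes from 0.02 to 0.25 at 3 h and from 0.04 to 0.40 at 6 h. The share of called genes that were higher moved from 73.4% to 95.8% at 3 h, from 50.8% to 88.2% at 6 h and from 27.8% to 56.5% between the times. Under that scaling 5 members were called higher at 6 h (Srsf2, Srsf3, Srsf10, Srsf11 and Tra2b) and none lower, while 28.8% of all tested genes were called higher and 3.87% lower. The median of the 9 members was 0.31, beside the shifted median of 0.40 over all genes. Upper-quartile scaling and DESeq2 size factors moved the median of all genes at 6 h by only 0.02 and -0.02. The member called at 6 h still changed with upper-quartile scaling. Srsf1 lost its call (-0.29, edgeR adjusted p = 0.0628) and Srsf11 was called higher (0.53, edgeR adjusted p = 0.0470). A filter of at least 1 CPM in every library made the same exchange (edgeR adjusted p of 0.0764 for Srsf1 and 0.0365 for Srsf11). No spike-in is described in the labels, so a change in total mRNA per cell was not measured.

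**Figure D4:**
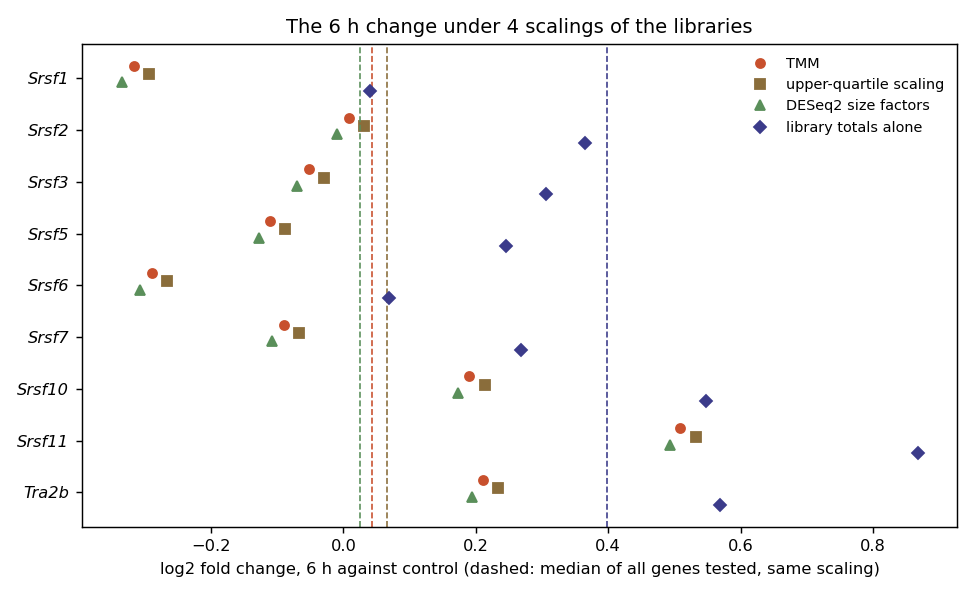
Log2 fold change at 6 h against control of the 9 tested SR genes under 4 scalings of the libraries (points), with dashed lines at the median of all genes under the same scaling. Library totals alone move every gene to the right, along with the median of all genes (0.40 against 0.04 with TMM); the other 3 scalings lie close together.

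The most similar profile to that of Srsf11 over the 6 libraries, among 5471 other genes with a mean of at least 20 CPM, was that of Ist1 (Pearson r = 0.991 over log2 CPM). Slc4a7 (0.986), Mtus2 (0.985), Zc3h15 (0.983) and Nop56 (0.972) followed. These are descriptions over 6 libraries that share their groups and depths, chosen as the highest of many.

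Genes that act with the members were counted from lists of the pathway. Of 25 other SR and SR-related genes tested, 0 were called at 3 h and 6 at 6 h, with a median of 0.18. For this and the lists below, the shares over all tested genes were 3.6% higher and 1.3% lower at 3 h. At 6 h they were 14.8% higher and 14.3% lower, and no list was tested against these shares. Higher at 6 h were Rbm39, a splicing coactivator (1.09 ± 0.20, adjusted p = 0.00583), Luc7l, a U1-associated factor (0.79 ± 0.15, adjusted p = 0.00686), Tra2a and Scaf8 (0.65, adjusted p = 0.0202). Lower were Arglu1 (-0.73 ± 0.13, adjusted p = 0.00483) and Snrnp70, a protein of the U1 particle (-0.56 ± 0.11, adjusted p = 0.00819). Tra2a and Scaf8 were picked out after their values were seen.

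Tra2a is the paralogue of Tra2b whose poison exon is printed above. It had 59.8 and 69.0 CPM in control, 77.6 and 84.8 CPM at 3 h, and 97.8 and 106 CPM at 6 h. The 3 groups did not overlap, and their order was control, 3 h, 6 h from low to high. Its log2 fold change was 0.34 ± 0.13 at 3 h (adjusted p = 0.161) and 0.67 ± 0.13 at 6 h (adjusted p = 0.00775), a called rise, lost in 2 of 18 alternatives, against a 1.5-fold threshold and without the second 6 h library (0.60, adjusted p = 0.0622). The value for Tra2b at 6 h was 0.21, and the difference between the paralogues was not tested. Srsf9 and Srsf12, the other family members in the files, were not called at either time. Srsf9, whose annotated cassette exon with a premature stop has 358 bases, was at 52.1 and 52.9 CPM in control. It had 46.8 and 37.5 CPM at 3 h and 41.4 and 50.9 CPM at 6 h, so all treated libraries were below both controls. Its log2 fold change was -0.32 ± 0.17 at 3 h (edgeR adjusted p = 0.272) and -0.19 ± 0.16 at 6 h (adjusted p = 0.427). Srsf12 did not exceed 1.59 CPM in any library.

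The next list held 8 tested kinases that act on SR proteins and Tnpo3, the receptor for their nuclear import. Of these 9 genes 3 were called higher at 3 h and 4 at 6 h, with 1 lower at 6 h, and medians of 0.22 and 0.78. Over all tested genes, 3.6% were called higher at 3 h, and 14.8% higher and 14.3% lower at 6 h. The 3 listed genes called at 3 h, picked out after their values were seen, were all CDC-like kinases. Clk3, also picked out later, is the remaining CDC-like kinase of the list. It was not called at 3 h (0.55, edgeR adjusted p = 0.188) or at 6 h (0.39, edgeR adjusted p = 0.243). Clk1 was at 73.4 and 71.2 CPM in control, 147 and 215 CPM at 3 h, and 193 and 131 CPM at 6 h. Clk4 was at 12.6 and 9.41 CPM in control, 31.7 and 35.7 CPM at 3 h, and 30.5 and 29.1 CPM at 6 h. Clk2 was at 49.4 and 48.9 CPM in control, 107 and 120 CPM at 3 h, and 86.9 and 81.5 CPM at 6 h. All treated libraries of the 3 genes were above all controls. The log2 fold changes at 3 h were 1.32 ± 0.22 for Clk1 (adjusted p = 0.0169), 1.21 ± 0.13 for Clk2 (adjusted p = 0.00195) and 1.60 ± 0.18 for Clk4 (adjusted p = 0.00322). At 6 h they were 1.16 ± 0.22 (adjusted p = 0.00672), 0.78 ± 0.12 (adjusted p = 0.00362) and 1.42 ± 0.18 (adjusted p = 0.00147). Clk4 was called at both times in all 18 alternatives. Clk1 lost its 3 h call without the second 3 h library (1.02, adjusted p = 0.110) and against a 1.5-fold threshold, where the 6 h calls of Clk1 (adjusted p = 0.0602) and Clk2 (adjusted p = 0.170) were lost as well. Dyrk1a, a kinase of the same group, was higher at 6 h (0.85 ± 0.12, adjusted p = 0.00257) and Srpk2, a cytoplasmic SR kinase, was lower (-0.55 ± 0.15, adjusted p = 0.0229), a call lost in 4 of 18 alternatives, among them without the first control library (-0.48, adjusted p = 0.0699) and without the first 6 h library (-0.41, adjusted p = 0.152).

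The ribonucleoprotein and PTB list and the core spliceosome list had more genes called lower than higher at 6 h under TMM scaling. Over all tested genes the shares were 14.8% higher and 14.3% lower. Of 25 genes for heterogeneous nuclear ribonucleoproteins and PTB proteins, 2 were called higher and 12 lower, with a median of -0.33. Hnrnpa3 (-0.77 ± 0.11, adjusted p = 0.00262) and Hnrnpu (-0.70 ± 0.10, adjusted p = 0.00264) fell with the smallest p. Ptbp2, a splicing repressor of neuronal cells, rose (1.08 ± 0.20, adjusted p = 0.00570), as did Hnrnpa1 (2.19 ± 0.55, adjusted p = 0.0187). Hnrnpa1 had at most 2.53 CPM in a library and many near-identical copies in the genome, so its value is uncertain. Of 35 core spliceosome genes 8 fell at 6 h and 0 rose, with a median of -0.13, led by Snrpb2 (-0.57 ± 0.10, adjusted p = 0.00520) and Prpf19 (-0.80 ± 0.17, adjusted p = 0.0114). With library totals alone, 3 of the ribonucleoprotein genes were called higher and 2 lower, and 6 spliceosome genes were called higher and 0 lower, beside the 28.8% and 3.87% of all genes called higher and lower under that scaling. The calls of both lists relative to 0 therefore moved along with those of all genes. The same scaling gave 10 higher and 0 lower among the other SR and SR-related genes, and 6 higher and 0 lower in the list of kinases and the import receptor.

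Among 17 NMD and exon junction complex genes, 4 were called higher and 3 lower at 6 h, with a median of 0.05. Over all tested genes the shares were 14.8% and 14.3%. Upf2, an adaptor of the NMD helicase (1.15 ± 0.21, adjusted p = 0.00605), and Casc3, a subunit of the exon junction complex (1.09 ± 0.17, adjusted p = 0.00312), rose, as did Smg9 (0.99, adjusted p = 0.0322). Smg8 (-0.82 ± 0.14, adjusted p = 0.00420), Magoh (-0.64 ± 0.11, adjusted p = 0.00489) and Eif4a3 (-0.55, adjusted p = 0.0354) fell. Smg9 and Eif4a3 were picked out after their values were seen. Casc3 was already higher at 3 h (0.75 ± 0.17, adjusted p = 0.0446) and Magoh lower (-0.50 ± 0.11, adjusted p = 0.0418), and these were the only calls in this list at 3 h. They were lost in 10 and 9 of 18 alternatives, and the 6 h calls of Smg9 and Eif4a3 likewise in 10 and 9. Library totals alone gave 6 higher and 1 lower in this list at 6 h.

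**Figure D5:**
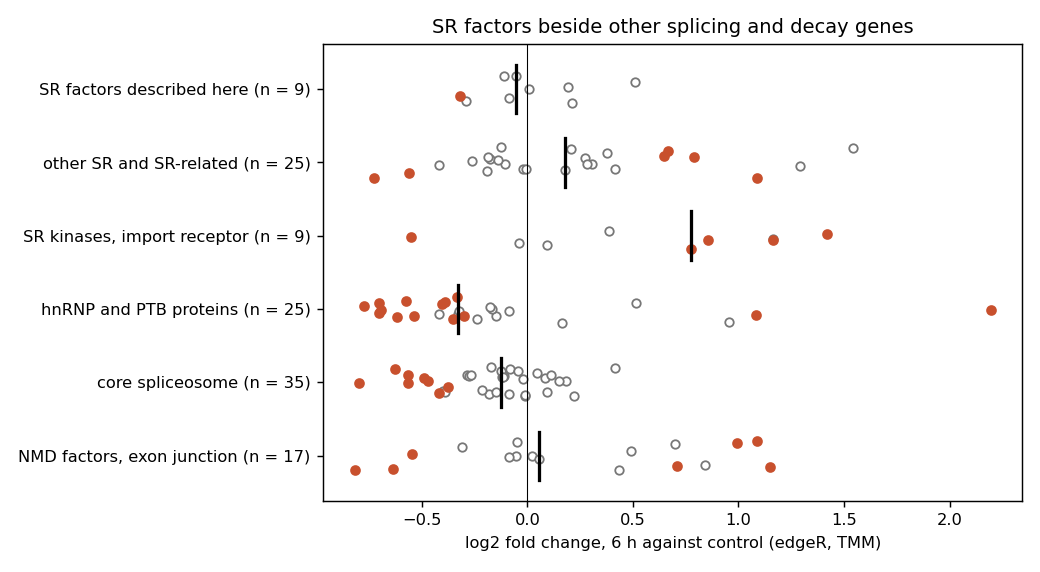
Log2 fold change at 6 h against control (edgeR, TMM) of the 9 tested SR genes and of the tested genes of each list; each point is a gene, filled points are called at an adjusted p under 0.05, and black lines are medians. The SR genes lie between -0.32 and 0.51. The kinase list reaches 1.42 and the list of other SR and SR-related genes 1.54, with a gene that was not called. The ribonucleoprotein list reaches 2.19 (Hnrnpa1, of low counts) but has most of its called genes below 0.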

How the data were processed

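Polyadenylated RNA of 6 libraries was extracted with TRIzol, barcoded and sequenced as a pool, per the labels' protocols. The values deposited are whole numbers, read here as raw counts for each gene, and the submitters' processing notes name mm10. The aligner, the counting program, its strand setting and any use of molecular identifiers are not given in the sources used here. The design text speaks of single-cell sequencing, but each file holds 1 column and was treated as 1 bulk library. Groups and replicate numbers came from the sample titles.

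Counts were analysed with edgeR 4.0.16 in R 4.3.3. Genes had to reach the CPM of 10 counts in a median library in at least 2 libraries, with at least 15 counts in all. Libraries were scaled by TMM (30% of M and 5% of A values trimmed), and 1 fit of all 6 libraries gave each group a mean, which left 3 residual degrees of freedom. The quasi-likelihood test was two-sided, p-values were adjusted by Benjamini-Hochberg over all 12755 genes, and an adjusted p under 0.05 was a call. An SE is the absolute log2 fold change divided by the square root of F. An exact permutation test of 2 against 2 libraries cannot go below p = 0.333. The floors cover counting error only. Intervals of fold changes rest on the SE of the edgeR fit, which includes the spread between these libraries.

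The members and gene lists were chosen with earlier results of these data known. All members are named, and of each list the 2 called genes with the smallest p at 6 h in each direction, beside those marked as picked later; the values of 1 listed gene are not reported here. Poison exons and their sequences came from GENCODE M21. Alternatives were other scalings, filters and tests (DESeq2 1.42.0, limma-voom 3.58.1), a replicate block, thinning, removal of mitochondrial genes, and omission of each library. Replicates were compared by chi-square and differed beyond sampling noise (18.7 to 27.7 per degree of freedom).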

Additional observations from a re-analysis of the deposited data

Results flagged for a closer look

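No member was singled out, and with 2 libraries per group no library could be tested as an outlier. For 3 genes of the accompanying lists the changes at 6 h and at 3 h differed in a direct edgeR test of 6 h against 3 h. That test called 0.455% of all tested genes higher and 1.18% lower. Dyrk1a, a kinase of SR proteins, was higher at 6 h by 0.63 ± 0.12 on the log2 scale (adjusted p = 0.0456), with 79.9 and 84.1 CPM at 3 h and 123 and 131 CPM at 6 h. Hnrnpa3, a ribonucleoprotein, had a log2 difference of -0.57 ± 0.11 (adjusted p = 0.0489), from 502 and 444 CPM at 3 h to 339 and 298 CPM at 6 h. Smg8, a cofactor of the NMD kinase, had a log2 difference of -0.70 ± 0.14 (adjusted p = 0.0442), from 141 and 124 CPM to 83.0 and 79.5 CPM. The libraries of the 2 times did not overlap for any of the 3 genes. The calls were lost in 6, 10 and 9 of 18 alternatives respectively.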

How the results depend on the processing

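Over 18 alternatives the 27 member values gave 430 results with the same direction and call. With the direction kept, 12 lost a call (all Srsf1 at 6 h) and 15 gained one, and 29 changed sign. The 29 include 6 h values with library totals alone, where Srsf1 lost its call and Srsf3 gained one. With library totals alone, 3 h log2 values became 0.21 (Srsf2), 0.078 (Srsf3), 0.20 (Srsf5), 0.011 (Srsf6) and 0.086 (Srsf7). Those of 6 h became 0.040 (Srsf1), 0.31 (Srsf3), 0.25 (Srsf5), 0.069 (Srsf6) and 0.27 (Srsf7), and those between the times 0.043 (Srsf5) and 0.058 (Srsf6); all genes called at 3 h rose to 1373, and members called at 6 h to 5. Srsf2 at 6 h was -0.0098 with DESeq2 size factors and in the DESeq2 test.

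Members called were 1 (3 h) and 2 (6 h) with no filter, 1 and 3 by the DESeq2 test, and 2 at 6 h by limma-voom. There were 0 at 6 h with only the 4 libraries compared, after thinning, and against a 1.5-fold change. All genes called at 3 h, at 6 h and between the times were 1816, 4574 and 1063 with no filter (of 17485 tested), 1437, 3932 and 667 by the DESeq2 test, and 445, 3619 and 508 by limma-voom. They were 218 and 563 with only the 4 libraries compared, and 108, 773 and 25 (3 h, 6 h, between the times) against a 1.5-fold change. With the replicate block, members called at 6 h were 0 and all genes called were 426, 3550 and 126. Replicate differences correlated at 0.12, -0.03 and 0.02 between groups. With 2 libraries a group, these values cannot show whether libraries of the same number shared a culture or day, which the labels do not state.

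Omitting 1 library gave 108 to 1033 calls at 3 h, 1312 to 3578 at 6 h, 14 to 595 between the times, and 0 to 2 members at 6 h. At 3 h log2 values ranged from -0.16 to 0.10 (Srsf2), -0.17 to 0.13 (Srsf5), -0.076 to 0.20 (Srsf10) and -0.022 to 0.088 (Tra2b). At 6 h they ranged from -0.035 to 0.047 (Srsf2) and -0.25 to 0.049 (Srsf5). Between the times the ranges were -0.075 to 0.091 (Srsf1), -0.092 to 0.16 (Srsf2), -0.20 to 0.032 (Srsf5), -0.022 to 0.12 (Srsf7), -0.083 to 0.33 (Srsf11) and -0.46 to 0.14 (Clk1). The cause of these differences was not tested. The alternatives for lists and for Tra2a and the kinases were chosen after seeing the data. With 2 libraries a group, member changes smaller than about the intervals given could not be resolved.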

Other observations

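Genes were also grouped by what the annotation says of their NMD transcripts, a grouping made after the data were seen, with 93.9% of tested genes matched by symbol and chromosome. Among 978 tested genes with a cassette exon that holds a premature stop, as in Srsf3 or Tra2b, 14.4% were called higher and 11.7% lower at 6 h, with a median log2 fold change of 0.07. Among 2290 genes with another kind of NMD transcript, as in Srsf1 or Srsf2, the shares were 14.9% and 13.0%, with a median of 0.05. Among 8710 genes with no NMD transcript, as in Srsf10, they were 14.3% and 15.2%, with a median of 0.03. At 3 h the shares called higher in the same order of classes were 3.27%, 3.14% and 3.75%. Those called lower at 3 h were 0.511%, 0.961% and 1.31%. Between 6 h and 3 h, 0.307%, 0.262% and 0.551% were called higher and 0.409%, 0.611% and 1.37% lower. These are descriptions of gene classes that differ in annotation depth and expression, and no test was made between them.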
